A study of Mus musculus with 12 samples.

Results

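Glycolysis splits glucose into pyruvate in the cytosol, the pyruvate dehydrogenase complex turns pyruvate into acetyl-CoA in mitochondria, and the citric acid cycle oxidises it. Gluconeogenesis runs the other way and makes glucose, in the kidney chiefly in proximal tubule. The inner part of the kidney, the renal medulla, is poor in oxygen and leans on glycolysis, while the thick ascending limb and proximal tubule are rich in mitochondria. The genes described here encode the enzymes of these pathways and were chosen by symbol. A rule naming hexokinase to lactate dehydrogenase, the pyruvate dehydrogenase complex and its kinases, the citric acid cycle, gluconeogenesis and malic enzyme matched 38 of 6786 genes with a measured value, carried by 60 clones. Further symbols that the rule names, among them Gpi1, Eno1, Pck1, Fbp1 and G6pc, were not analysed here.

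Medullary RNA from 3 water-restricted mice (called restricted mice here) and 3 control mice was amplified and co-hybridised in pairs on 12 arrays, so that every restricted mouse met every control mouse. The dyes were Alexa Fluor 546 and 647, and 3 of the 9 pairs of mice were measured in both dye orientations. The labels call the mice only water-restricted or control. For strain, sex, age and duration of the restriction the sources used here give nothing, and what the groups share beyond the tissue is not stated. In tissue RNA, fewer cells of a type and less RNA per cell cannot be told apart. A ratio carries no absolute level, so the presence of medullary marker transcripts could not be examined, and of the thick ascending limb list 0 of 5 genes were measured.

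The values are log2 ratios whose signs were turned on arrays with the restricted mouse in Alexa Fluor 647. Which dye is the numerator is not stated. With Alexa Fluor 546 as numerator a positive value is higher expression in the restricted mice, and with 647 it is lower expression. Every gene follows this convention, so a positive and a negative gene lie apart whichever dye it is. If the authors had already turned the swapped arrays, 29 of the 38 genes would be positive (59.4% of all genes) and 2 would have an unadjusted limma p under 0.05 (5.35%), and 14 would change sign, Idh3a and Pfkfb3 among them. The level of a mouse is its fitted log2 value relative to the mean of the 6 mice, and a difference is the mean level of the restricted mice minus that of the control mice.

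The genes lay mostly on 1 side. Of the 38, 31 had a positive difference, against 50.7% of all genes, and their median was 0.29 log2, against 0.003 over all genes. The largest positive differences were in mitochondrial enzymes, Idh3a at 0.74 (SE 0.24), Dld at 0.67 (SE 0.24) and Mdh2 at 0.65 (SE 0.20), and in the glycolytic enzymes Tpi1 and Gapdh, both at 0.51 (SE 0.18). The largest negative one was in Pfkfb3, which makes the activator of phosphofructokinase, at -0.82 (SE 0.28). By limma over 6786 genes, 0 of 38 passed an adjusted p of 0.05, as did 0% of all genes, and the smallest adjusted p among the 38 was 0.771. With random mouse effects 2 passed (1.65% of all genes), and with arrays as replicates, which ignores that arrays share mice, 12 passed (6.9%). At an unadjusted limma p under 0.05 there were 9 genes, against 4.97% of all genes, of which 8 were positive (21.1%, against 3.21% of all genes) and 1 was negative (2.63%, against 1.75%). The 3 restricted mice all lay above the 3 control mice in 11 genes (28.9%, against 5.94% of all genes) and all below them in 1 (2.63%, against 3.86%). At least 11 of 12 arrays were positive in 10 genes, against 3.98% of all genes.

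**Figure D1:**
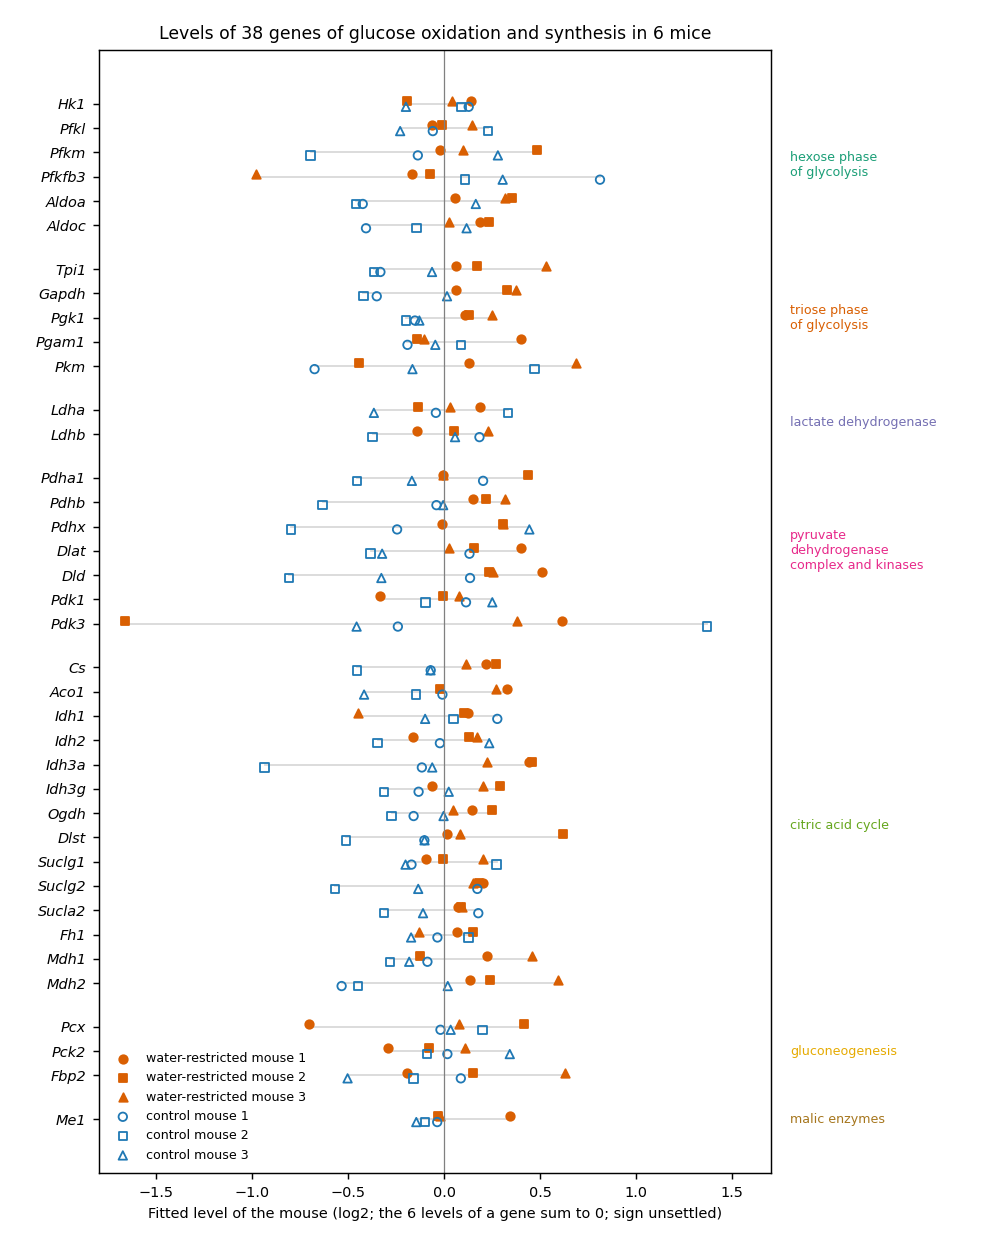
Fitted level of each of the 6 mice (x axis, log2 relative to the mean of the 6; the sign has no settled direction) for the 38 genes (rows), ordered by pathway step. Filled symbols are restricted and open symbols control mice; in Idh3a, Mdh2, Gapdh and Tpi1 all filled symbols lie to the right of all open ones, and in Pfkfb3 to the left.

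The hexose phase of glycolysis, from glucose to the triose phosphates, had members on both sides. Among 6 measured of its 14 listed symbols, 4 were positive, and the median was 0.17. Pfkfb3 had levels of -0.17, -0.077 and -0.98 in restricted mice 1, 2 and 3, and of 0.81, 0.11 and 0.30 in control mice 1, 2 and 3. The groups did not overlap, with restricted mouse 3 lowest and control mouse 1 highest. All 12 arrays were negative, from -2.01 to -0.099 with a median of -0.83. The difference of -0.82 had a 95% interval of -1.46 to -0.17 and a limma adjusted p of 0.805, and it was -0.53 without restricted mouse 3. It passed with random mouse effects (-0.83, limma adjusted p = 0.0193).

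Aldoa, the aldolase of muscle and most other tissues, lay on the positive side, with 0.054, 0.35 and 0.32 in the restricted mice, against -0.43, -0.46 and 0.16 in the controls. Control mouse 3 lay among the restricted mice, so the groups overlapped. Its difference was 0.48 (SE 0.21, limma adjusted p = 0.964). The 2 clones of Aldoa gave 0.49 and 0.47. Its paralog Aldoc had 0.29 (SE 0.18), or 0.16 without control mouse 1, and Pfkm, the muscle-type phosphofructokinase, 0.37 (SE 0.26), which was 0.12 without the array pairing restricted mouse 2 with control mouse 2. Pfkl, the liver-type enzyme, had 0.042 (95% interval -0.35 to 0.43) and Hk1, the hexokinase that traps glucose in most tissues, -0.011 (-0.40 to 0.37). Those intervals still hold differences of either sign.

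The triose phase, from triose phosphates to pyruvate, was positive in all 5 measured genes of 11 listed symbols, with a median of 0.32. Gapdh, which makes the first NADH of the pathway, had 0.059, 0.33 and 0.37 in the restricted mice, against -0.35, -0.42 and 0.014 in the controls. Tpi1, which interconverts the triose phosphates, had 0.062, 0.17 and 0.53 against -0.33, -0.37 and -0.064. In both genes the groups did not overlap, and control mouse 3 and restricted mouse 1 were the nearest neighbours across them. Pgk1, a kinase that makes ATP in this phase, had 0.11, 0.13 and 0.25 against -0.15, -0.20 and -0.13. Its spread within groups was the narrowest of the 3 genes. The differences were 0.51 for Gapdh (SE 0.18, limma adjusted p = 0.843), 0.51 for Tpi1 (SE 0.18, adjusted p = 0.851) and 0.32 for Pgk1 (SE 0.14, adjusted p = 0.984). Gapdh is often taken as a reference gene, and its sign here was the same as that of Tpi1 and Pgk1.

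Pgam1, the phosphoglycerate mutase, had 0.10 (SE 0.19) with overlapping groups. Pkm, the pyruvate kinase that ends the phase, had 0.25 (SE 0.35) from 3 clones at 0.66, -0.18 and 0.27. It was positive on 11 of 12 arrays and stood at -1.62 on the array pairing restricted mouse 2 with control mouse 2. Without that array its difference was 0.44, with the median over clones 0.54, without restricted mouse 3 -0.033 and without control mouse 1 -0.029. Its clones lay on both sides of 0.

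The lactate dehydrogenases, which exchange pyruvate and lactate, had small differences, 0.053 for Ldha (95% interval -0.42 to 0.52) and 0.090 for Ldhb (-0.35 to 0.53). Ldha, the subunit of glycolytic tissue, had 0.19, -0.14 and 0.027 in the restricted mice, against -0.044, 0.33 and -0.37 in the controls, and the groups overlapped fully. Ldhb, the subunit of oxidative tissue, had -0.14, 0.051 and 0.23 against 0.18, -0.37 and 0.056. Its value turned with the dye, at 0.29 to 1.30 on the 6 arrays with the restricted mouse in Alexa Fluor 546 and at -1.58 to -0.10 on the other 6. The dye term, by which a turned ratio lies above the mean of both orientations when the restricted mouse carries Alexa Fluor 546, was 0.59 for Ldhb (SE 0.12, limma adjusted p = 0.0285). Of the 38 dye terms 2 passed (5.26%, against 6.62% of all genes), and 30 were positive (59.7% of all genes).

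Promoter sequence is shown for the smallest unadjusted p on each side (Mdh2 and Pfkfb3) and for 3 glycolytic genes, because several glycolytic genes are classical targets of hypoxia-inducible factor. Each line gives the 250 bases before a RefSeq transcript start on GRCm38.p6, 5′ to 3′ on the gene's strand, the window listed first where a gene has several. Capitals mark ACGTG, the core of the hypoxia response element, on either strand. The windows are Mdh2 at chr5:135778399-135778648 (plus strand), Gapdh at chr6:125165774-125166023 (minus), Pgk1 at chrX:106186850-106187099 (plus), Ldha at chr7:46845554-46845803 (plus) and Pfkfb3 at chr2:11553930-11554179 (minus).
Mdh2: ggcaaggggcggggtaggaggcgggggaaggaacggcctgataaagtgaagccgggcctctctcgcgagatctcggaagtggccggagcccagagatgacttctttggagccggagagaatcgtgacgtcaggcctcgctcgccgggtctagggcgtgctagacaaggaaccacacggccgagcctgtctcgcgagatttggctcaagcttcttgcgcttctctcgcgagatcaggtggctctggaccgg
Gapdh: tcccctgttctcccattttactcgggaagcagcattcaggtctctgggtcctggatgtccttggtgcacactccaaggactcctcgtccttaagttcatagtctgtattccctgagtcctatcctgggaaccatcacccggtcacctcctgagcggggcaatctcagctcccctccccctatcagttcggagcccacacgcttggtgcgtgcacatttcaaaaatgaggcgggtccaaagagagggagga
Pgk1: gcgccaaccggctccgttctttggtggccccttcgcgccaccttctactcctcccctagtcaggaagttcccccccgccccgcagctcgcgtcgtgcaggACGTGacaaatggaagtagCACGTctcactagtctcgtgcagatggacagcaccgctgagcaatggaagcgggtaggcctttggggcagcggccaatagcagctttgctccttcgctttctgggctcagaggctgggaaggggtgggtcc
Ldha: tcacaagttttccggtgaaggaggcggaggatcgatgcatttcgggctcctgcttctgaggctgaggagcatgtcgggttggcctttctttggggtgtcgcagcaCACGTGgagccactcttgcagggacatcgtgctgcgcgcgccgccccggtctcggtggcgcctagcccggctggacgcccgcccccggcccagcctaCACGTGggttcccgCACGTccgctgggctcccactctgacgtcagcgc
Pfkfb3: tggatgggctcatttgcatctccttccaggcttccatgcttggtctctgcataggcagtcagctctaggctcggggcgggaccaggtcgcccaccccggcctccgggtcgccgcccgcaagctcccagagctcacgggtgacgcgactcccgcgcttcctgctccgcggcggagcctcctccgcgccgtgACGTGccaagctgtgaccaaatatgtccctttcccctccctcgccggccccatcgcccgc

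The core occurs 5 times in the Ldha window, counting the palindrome CACGTG once per strand, 2 times in that of Pgk1 and 1 time in that of Pfkfb3. It has 0 matches in these windows of Mdh2 and Gapdh. A match is a string of letters, not a site in use. RefSeq windows were found for 37 of the 38 genes, all but Idh3a, and 15 of the 37 (40.5%) held the core in at least 1 window, against 27% of 5489 measured genes with a window. In the window listed first the shares were 32.4% and 23.4%. Genes with the core had a median difference of 0.28 (12 of 15 positive) and genes without it 0.29 (18 of 22 positive). Ldha, with most matches of the 5, had 0.053, and Pfkfb3 and Pgk1, which share the core, lay on opposite sides.

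The pyruvate dehydrogenase complex links glycolysis to the citric acid cycle, and all 5 of its measured subunit genes were positive. Dld, the lipoamide dehydrogenase shared with the 2-oxoglutarate dehydrogenase complex, had 0.51, 0.235 and 0.256 in the restricted mice, against 0.13, -0.81 and -0.33 in the controls. The groups did not overlap, control mouse 2 was lowest, and 11 of 12 arrays were positive. Its difference was 0.67 (95% interval 0.12 to 1.22, limma adjusted p = 0.877), and leaving out control mouse 2 gave 0.43, control mouse 1 0.90. Pdhb, the beta subunit of the first enzyme, had 0.45 (SE 0.20), Pdhx, the binding protein, 0.40 (SE 0.29), and Dlat, the acetyltransferase, 0.38 (SE 0.19). Without control mouse 2 Pdhb was 0.25 and Pdhx 0.10.

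Pdha1, the alpha subunit and the target of the inhibitory kinases, had -0.006, 0.44 and -0.009 in the restricted mice, against 0.20, -0.45 and -0.17 in the controls. The groups overlapped, and the difference was 0.28 (SE 0.22), or 0.12 without control mouse 2. Both measured kinases, which switch the complex off, were negative, Pdk1 at -0.18 (SE 0.18) and Pdk3 at -0.45 (SE 0.66). Neither passed, and neither sign held. Pdk1 had 0.19 on the arrays with the restricted mouse in Alexa Fluor 546 and -0.545 on the others. Pdk3 had -5.86 on the array pairing restricted mouse 2 with control mouse 2, and its difference without that array was 0.26.

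In the citric acid cycle list 13 of 14 measured genes, of 16 listed symbols, were positive, with a median of 0.32. The list counts the cytosolic Aco1, Idh1 and Mdh1 and leaves out succinate dehydrogenase, given further below. Idh3a, the catalytic subunit of the NAD-dependent isocitrate dehydrogenase, had 0.44, 0.46 and 0.22 in the restricted mice, against -0.12, -0.94 and -0.063 in the controls. The groups did not overlap, and control mouse 2 stood below the other 5 mice. It was positive on 12 of 12 arrays, from 0.205 to 1.43, and its 3 clones gave 0.675, 0.672 and 0.885. The difference of 0.74 had a 95% interval of 0.185 to 1.30 and a limma adjusted p of 0.771, and it was 0.46 without control mouse 2. With random mouse effects it passed (0.73, limma adjusted p = 0.0205). The SE was 0.148 in that fit, against 0.244 in the main fit. As for Pfkfb3, the smaller SE rests on 1 variance ratio for all genes, and the F of Idh3a between mice of a group was 7.26.

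Mdh2, the mitochondrial malate dehydrogenase that closes the cycle, had 0.14, 0.24 and 0.59 in the restricted mice, against -0.54, -0.45 and 0.018 in the controls. The groups did not overlap, and control mouse 3 was nearest to the restricted mice, as in Gapdh and Aldoa. Its difference was 0.65 (95% interval 0.18 to 1.11, limma adjusted p = 0.771), 0.84 and 0.37 in the 2 dye orientations. Cs, the citrate synthase that starts the cycle, had 0.22, 0.27 and 0.11 against -0.071, -0.46 and -0.072. Its groups did not overlap either, its difference was 0.40 (SE 0.17, limma adjusted p = 0.951), and its 2 clones gave 0.24 and 0.555.

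Among the rest of the cycle, Dlst, the succinyltransferase of the 2-oxoglutarate complex, had 0.48 (SE 0.21) from clones at 0.088, 0.98 and 0.37, and 0.32 without the array pairing restricted mouse 2 with control mouse 2. Ogdh, the dehydrogenase of that complex, had 0.29 (SE 0.15). The cytosolic enzymes Aco1, which is also the iron-regulatory protein, and Mdh1 had 0.38 (SE 0.18) and 0.37 (SE 0.18), the latter 0.23 without restricted mouse 3. Suclg2 had 0.36 (SE 0.20), Idh3g 0.28 (SE 0.17) and Sucla2 0.17 (SE 0.17), the first and the last being the nucleotide-specific subunits of succinyl-CoA ligase and Idh3g a regulatory subunit. Without control mouse 2 Suclg2 was 0.16 and Sucla2 0.050, and Idh3g was 0.12 without the array pairing restricted mouse 2 with control mouse 2. Fumarase, Fh1, had 0.055 (95% interval -0.31 to 0.42) and the mitochondrial NADP-dependent Idh2 0.091 (-0.35 to 0.53). The only negative gene among these 14 was the cytosolic counterpart of Idh2, Idh1, at -0.15 (SE 0.20). The 2 clones of Idh1 disagreed at 0.029 and -0.33, and its difference was 0.038 without restricted mouse 3.

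Suclg1, the shared subunit of succinyl-CoA ligase, had -0.094, -0.007 and 0.20 in the restricted mice, against -0.17, 0.27 and -0.20 in the controls. The groups overlapped, and the difference was 0.067 (SE 0.18). Like Ldhb it followed the dye, with 6 of 6 arrays positive in one orientation and 1 of 6 in the other. Its dye term was 0.52 (SE 0.10, limma adjusted p = 0.0228). With swapped arrays already turned by the authors, this too would be a group difference, 0.505 (unadjusted limma p = 0.0179, adjusted p = 0.868).

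**Figure D2:**
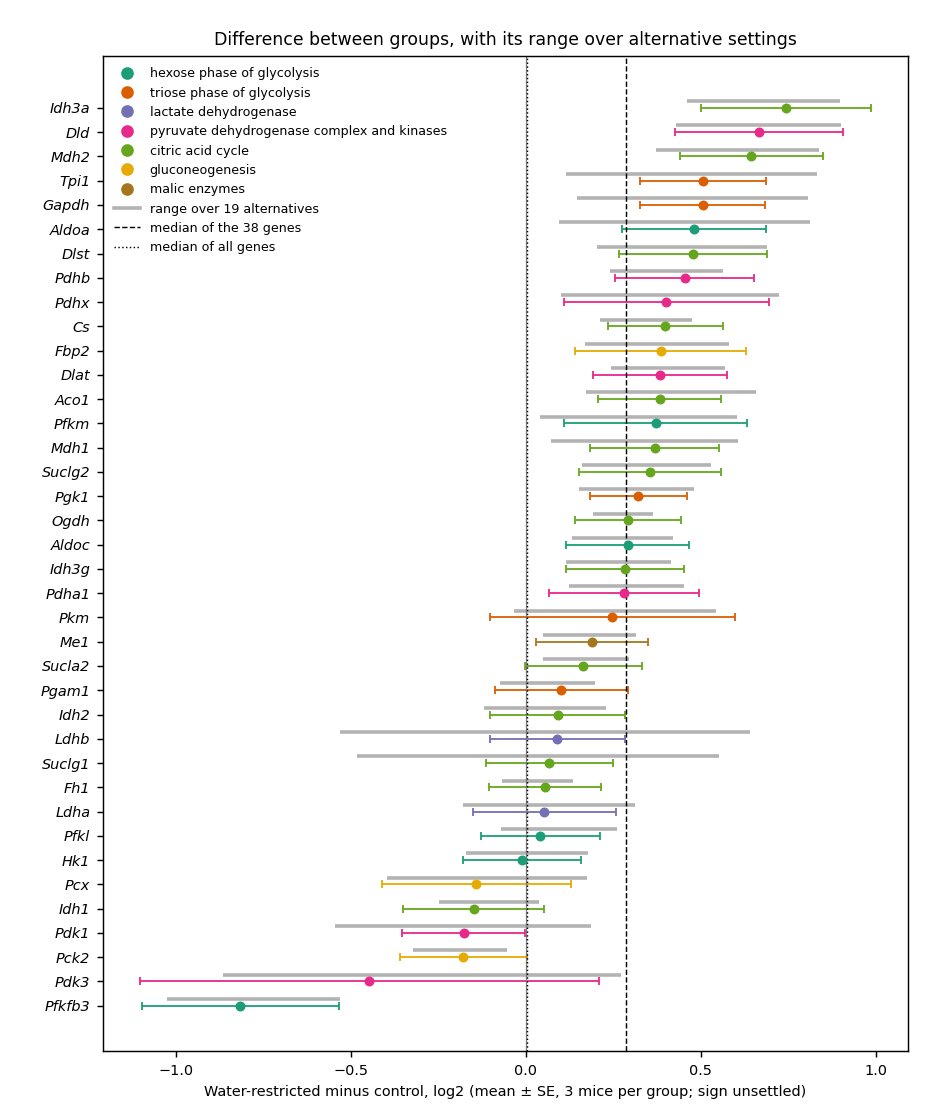
Difference between restricted and control mice (x axis, log2, mean ± SE, 3 mice per group; the sign has no settled direction) for the 38 genes (rows), coloured by pathway step. Grey bars give the range over 19 alternative settings, and the dashed and dotted lines are the medians of the 38 genes (0.29) and of all genes (0.003); 31 of 38 points lie on the positive side.

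Gluconeogenesis had 3 measured genes of 7 listed symbols, and they did not share a side. Fbp2, the muscle-type fructose bisphosphatase, had 0.39 (SE 0.25), Pck2, the mitochondrial phosphoenolpyruvate carboxykinase, -0.18 (SE 0.18) and Pcx, the pyruvate carboxylase that feeds oxaloacetate into both pathways, -0.14 (SE 0.27). Of the 2 clones of Pcx, 1 had a level of -1.265 in restricted mouse 1 and the other -0.14, and without that mouse the difference of Pcx was 0.175. Fbp2 was 0.17 without restricted mouse 3, and Pck2 -0.053 without control mouse 3. Me1, the cytosolic malic enzyme, which makes NADPH, had 0.19 (SE 0.16) from 4 clones between 0.062 and 0.46, and 0.066 without restricted mouse 1. The 3 restricted mice of Me1 lay above the 3 control mice, the nearest pair being at -0.035 and -0.037.

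The 2 dye orientations gave different values. With the restricted mouse in Alexa Fluor 546, 34 of 38 genes were positive (median 0.37, against 0.052 over all genes), and with it in Alexa Fluor 647, 26 of 38 (median 0.14, against -0.044). Those shares are 89.5% and 68.4%, beside 57.5% and 43.8% of all genes, and an unadjusted limma p under 0.05 was reached by 7 and 4 genes, beside 5.32% and 8% of all genes. Aldoa, Tpi1 and Gapdh had 0.81, 0.83 and 0.81 in the former and 0.096, 0.11 and 0.15 in the latter. Idh3a, Dld and Pfkfb3 had 0.63, 0.69 and -0.63 in the former and 0.84, 0.655 and -1.025 in the latter. The dye terms of Gapdh (0.33, SE 0.09), Tpi1 (0.36, SE 0.10) and Aldoa (0.36, SE 0.10) did not pass, with limma adjusted p of 0.0553, 0.0660 and 0.0631. With arrays scaled to 1 spread those of Gapdh and Tpi1 did pass, beside Ldhb and Suclg1. Every mouse was measured 2 times in each dye, so leaving out the dye term cannot change a difference. Without it those of Gapdh, Tpi1 and Aldoa were again 0.51, 0.51 and 0.48, which is no check on the dye.

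**Figure D3:**
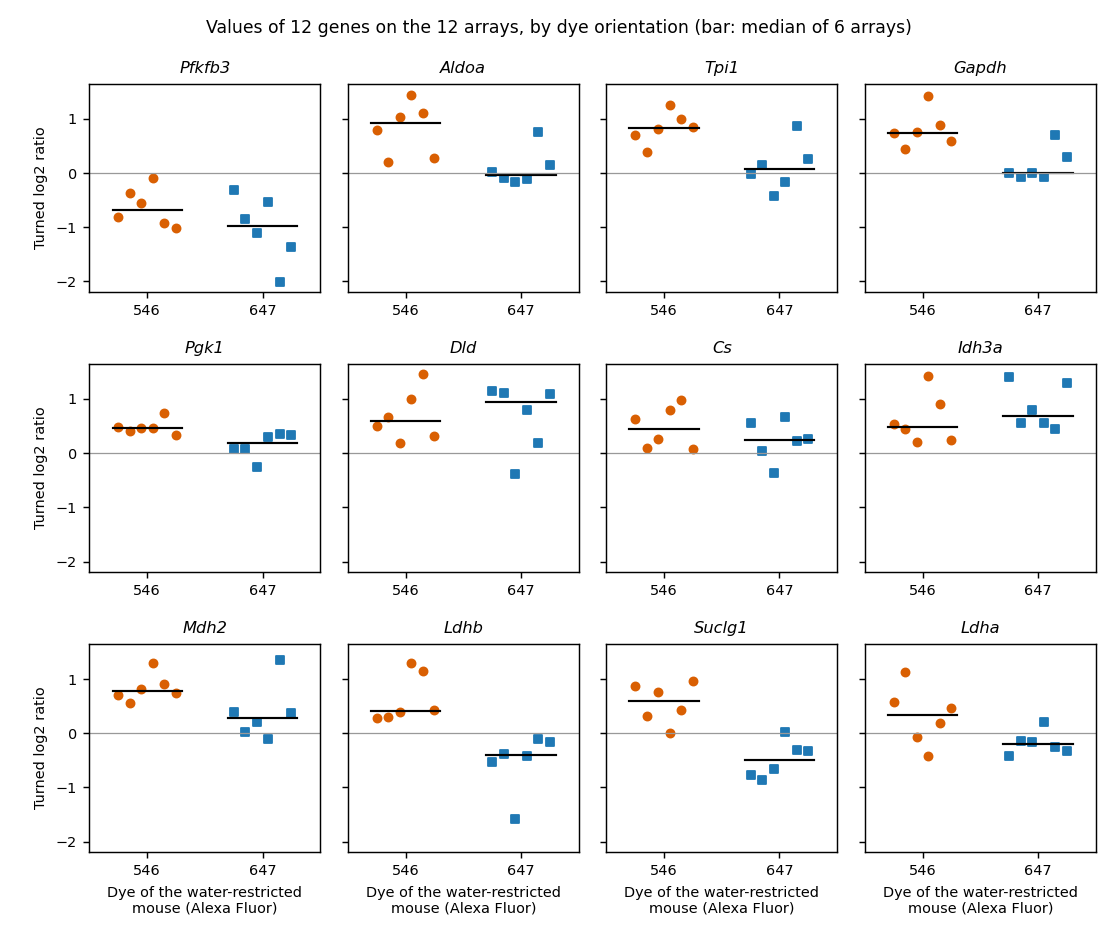
Turned log2 ratio (y axis) of 12 genes on the 12 arrays, by the dye carried by the restricted mouse (x axis, Alexa Fluor 546 or 647); each point is 1 array and each bar the median of 6. Ldhb lies above 0 on all arrays of one orientation and below 0 on all of the other, while Idh3a is above 0 on all 12 and Pfkfb3 below 0 on all 12.

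Of the 38 genes 15 had several clones, and in 12 of these all clones lay on 1 side, the exceptions being Pfkl, Pkm and Idh1. The clones of Aldoa, Gapdh, Dlat, Idh3g and Mdh1, for example, differed from each other by less than their SE. Whether near-identical copies share the signal of a clone, as the many pseudogenes of Gapdh could, was not tested.

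**Figure D4:**
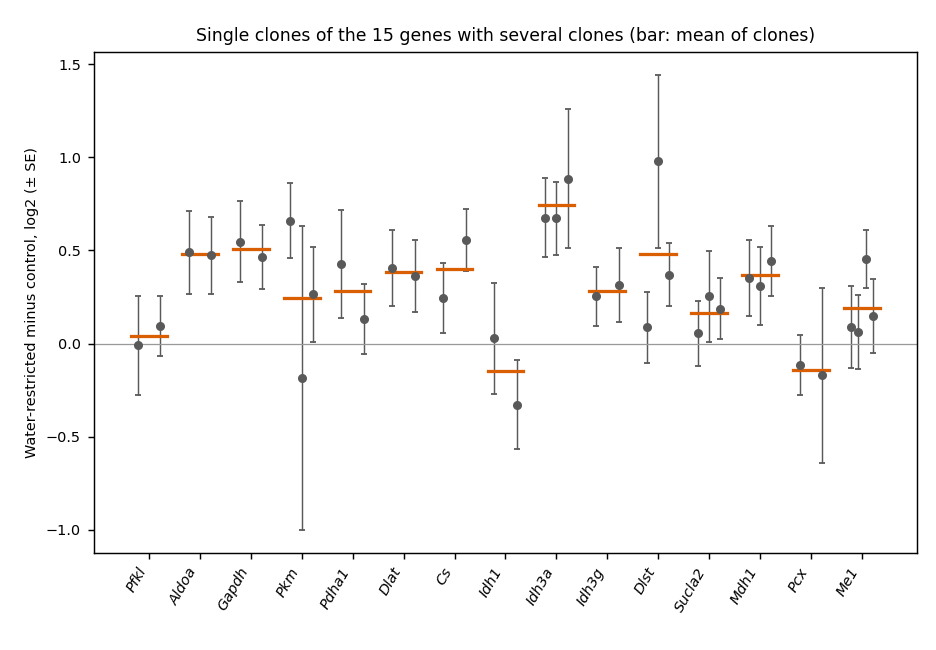
Difference between groups (y axis, log2, ± SE) for each clone of the 15 genes with several clones (x axis); orange bars are the gene means. The 3 clones of Idh3a lie between 0.672 and 0.885, while those of Pkm spread from -0.18 to 0.66.

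The lowest level was not spread evenly over the 6 mice. Control mouse 2 had the lowest level of all 6 mice in 20 of the 38 genes (52.6%, against 26.3% of all genes), among them 9 of 14 citric acid cycle genes and 5 of 7 of the pyruvate dehydrogenase group. Control mice 1 and 3 were lowest in 4 and 8 genes (13% and 11.6% of all genes), and restricted mice 1, 2 and 3 in 3, 1 and 2 (19.7%, 16.7% and 12.7%). Control mouse 2 met restricted mouse 2 on the array with the widest spread of values (SD 1.21). The part of that array in the low levels was not tested. The mean level of the citric acid cycle genes was 0.12, 0.19 and 0.14 in the restricted mice, against -0.059, -0.30 and -0.092 in the controls. That of the triose phase genes was 0.15, 0.009 and 0.35 against -0.34, -0.086 and -0.079, so control mouse 1 had the lowest mean. Gene by gene, control mouse 2 was lowest in 3 of these 5 genes and control mouse 1 in 2. Pkm, whose clones disagreed, had -0.68 in control mouse 1 and 0.47 in control mouse 2. Among mice within a group, by limma's F-test on the error between arrays, 0 of 38 genes passed (0.206% of all genes did). Without the adjustment 7 of 38 had p under 0.05 (18.4%, against 12.8% of all genes), and Pfkfb3 had the largest F, 10.6 (limma adjusted p = 0.166).

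Markers of other kidney cells are given beside these genes, in lists chosen with earlier results of these data known. Of 15 listed proximal tubule genes 5 were measured and 4 were positive, with a mean level of 0.39, 0.43 and 0.54 in the restricted mice, against 0.22, -0.92 and -0.66 in the controls. The 4 measured of 10 listed principal cell genes were all negative, with -0.33, -0.26 and -0.47 against 0.20, 0.35 and 0.50. Control mouse 2 was lowest both in the proximal tubule mean and in the citric acid cycle mean, but this was not particular to them. Among lists given further below, it was also lowest in the means of pentose phosphate and glycogen (-0.22), hypoxia (-0.21) and succinate dehydrogenase genes (-0.17). It was lowest over all genes too (-0.03), but not in the mean of the transport genes (0.10). Among single markers, Slc4a1 of intercalated cells had -0.74 and the erythroid genes Hbb-b1 and Alas2 -0.999 and -0.245, Lyz2 of leukocytes 0.40, and 0 listed genes of endothelium or muscle were measured. The part of cell content in the differences of the 38 genes was not tested.

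In the malate-aspartate and citrate shuttles, which carry reducing power and carbon across the mitochondrial membrane, 8 of 11 genes were positive, and the 2 aspartate aminotransferases lay on opposite sides. Got1, the cytosolic enzyme, had 0.25, 0.80 and 0.45 in the restricted mice, against -0.34, -1.08 and -0.068 in the controls, a difference of 0.995 (SE 0.27, limma adjusted p = 0.771) with 12 of 12 arrays positive. Got2, the mitochondrial enzyme, had -0.67, -0.16 and -0.36 against 0.20, 0.91 and 0.079, a difference of -0.79 (SE 0.25, limma adjusted p = 0.771) with 11 of 12 arrays negative. Both had an unadjusted p under 0.05, in neither did the groups overlap, and Got2 had a dye term past the threshold (0.47, limma adjusted p = 0.0113). The other 8 genes named, with no unadjusted p under 0.05, were the dicarboxylate carrier Slc25a10 at 0.55, glutamate dehydrogenase Glud1 at 0.37, the aspartate-glutamate carrier Slc25a13 at 0.26, the alanine aminotransferases Gpt at 0.21 and Gpt2 at 0.18, the glycerol phosphate dehydrogenases Gpd2 at 0.13 and Gpd1l at -0.022, and the oxoglutarate carrier Slc25a11 at -0.10.

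Genes of transport and of the hypoxia system lay on both sides. Of 7 glucose and monocarboxylate transport genes 4 were positive (median 0.030), and 0 had an unadjusted p under 0.05. Mpc1, a subunit of the mitochondrial pyruvate carrier, had 0.46 (SE 0.21), Slc16a1, a lactate transporter, -0.61 (SE 0.40), the glucose transporters Slc2a4, Slc2a1 and Slc2a3 0.18, 0.030 and -0.054, the lactate transporter Slc16a3 0.086 and its partner Bsg -0.015. Of 10 genes of the hypoxia-inducible factor system and its targets 5 were positive (median -0.012), again 0 with an unadjusted p under 0.05. Car9, a carbonic anhydrase, had 0.61 (SE 0.49), Bnip3, a mitophagy receptor, 0.36 (SE 0.22) and the factor itself, Hif1a, -0.20 (SE 0.23). Ndrg1, Egln1 and P4ha2 lay between 0.004 and 0.125, and Vhl, Adm, Ero1a and Arnt between -0.050 and -0.028. The 95% intervals of Hif1a (-0.715 to 0.315) and Slc2a1 (-0.43 to 0.49) hold differences of either sign.

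**Figure D5:**
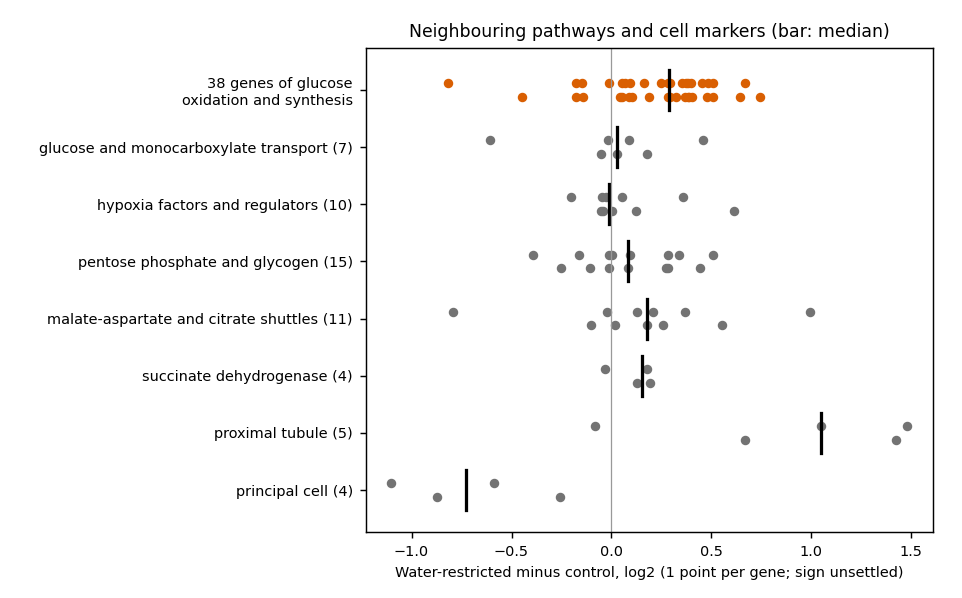
Difference between groups (x axis, log2; the sign has no settled direction) of single genes (points) in the 38 genes, in 5 neighbouring pathways and in 2 marker lists (rows, number of genes in brackets), with the median as a bar. The 38 genes have a median of 0.29 and the hypoxia and transport lists medians near 0. Proximal tubule and principal cell markers (5 of 15 and 4 of 10 listed genes) lie farthest out, at 1.05 and -0.73. The lists were chosen with earlier results of these data known.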

How the data were processed

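The authors deposited log2 ratios of both channels for 31200 spots on 12 arrays. The base was read from the values (array medians -0.04 to 0.06, lowest -15.2). Numerator, background correction and normalization: not given in the sources used here. Signals over background are not analysed here, and the number of arrays limits the precision. Adjacent spots carried the same clone and were averaged to 15600 clones, of which 9191 had 1 gene in the platform annotation, 254 several and 6155 none. The symbols of 9085 were looked up by Entrez identifier in RefSeq (GRCm38.p6), and clones were averaged to 6786 genes. Ratios with the restricted mouse in Alexa Fluor 647 were turned in sign. Deposited values of the 3 swapped pairs correlated at -0.14, 0.13 and -0.13, too weak to settle whether turning was needed. Duplicate spots correlated at 0.36 to 0.68, and the spread of values within an array (SD) was 0.52 to 0.76, except 1.21 on the array pairing restricted mouse 2 with control mouse 2.

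A weighted least-squares fit with a dye term (weight 0.5 for arrays of a swapped pair) gave a level for each mouse. Levels were compared 3 against 3 with limma 3.58.1 in R 4.3.3 (Benjamini-Hochberg over 6786 genes, threshold 0.05). Array noise is shared by both groups, which this comparison does not model, so its SEs and intervals can be too wide. The dye term and differences between mice of a group were tested with limma on the 12 arrays. Random mouse effects used 1 mouse-to-array variance ratio, 0.12, for all genes, so SEs can be too small for genes whose mice differ more. The procedure was run on simulated data with known differences, and how many of these it calls is not reported here. Every member was named, with levels in each mouse for those with an unadjusted p under 0.05, a dye effect, the largest difference on a side, and Gapdh, Ldha, Ldhb, Cs and Pdha1. Random effects, arrays as replicates, single orientations, other scalings and leaving out each mouse were alternatives. Of other lists up to 10 genes were named, smallest p first. Members and lists were chosen with earlier results of these data known. Nothing in the labels says that mouse 1 of both groups are related.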

Additional observations from a re-analysis of the deposited data

Results flagged for a closer look

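Among the 38 genes, each examined in 2 groups of 6 arrays of 1 dye orientation, 12 of 76 groups held an array far outside the range of the other 5. Chance gives about 1 in 20 such groups where values are normally distributed and independent. Here the groups share the same 12 arrays, and the share over all genes was 13%, beside 15.8% for the 38 genes. In 6 of the 12 that array paired restricted mouse 2 with control mouse 2, where Pfkm had 2.24 (others -0.11 to 0.55), Pkm -1.62 (0.23 to 0.88), Pdk3 -5.86 (0.081 to 0.38), Idh2 1.02 (-0.15 to 0.26), Idh3g 1.30 (-0.054 to 0.40) and Dlst 1.91 (0.35 to 0.53). On the array pairing restricted mouse 3 with control mouse 1, Aldoa had 0.76 (-0.16 to 0.16), Pkm 1.24 (0.004 to 0.44) and Mdh2 1.36 (-0.12 to 0.39). Pfkl stood out at 0.51 (-0.32 to -0.048) for restricted mouse 2 against control mouse 3, Pgk1 at 0.75 (0.33 to 0.48) for restricted mouse 3 against control mouse 2, and Ldhb at -1.58 (-0.54 to -0.10) for restricted mouse 2 against control mouse 1.

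The dye orientations differed by limma's test in Ldhb (dye term 0.59, adjusted p = 0.0285) and Suclg1 (0.52, adjusted p = 0.0228). If the authors had already turned the swapped arrays, these contrasts would be group differences. Ldhb and Suclg1 are the 2 genes with an unadjusted limma p under 0.05 in that reading.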

How the results depend on the processing

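Of the 38 genes 25 kept 1 sign in all 19 alternatives that keep the turning of the ratios. The share of all genes that do so was not counted, so 25 cannot be set against it. Among the 25 were the 9 with an unadjusted limma p under 0.05, which were picked by that p in these same data. Some of the 19 leave every difference as it was, such as arrays as replicates or no dye term. No sign could change in those. Read as already turned, the deposited signs put 29 genes on the positive side with a median of 0.125 and changed the sign of 14, Pfkfb3 (0.18), Idh3a (-0.081), Dld (-0.004), Dlat (-0.19), Aco1 (-0.28), Suclg2 (-0.052), Me1 (-0.094), Pdk1 (0.38), Hk1 (0.20), Pkm (-0.12), Idh1 (0.061), Sucla2 (-0.007), Pcx (0.30) and Pck2 (0.044). With the restricted mouse in Alexa Fluor 546 the sign changed in Pdk1 (0.19), Hk1 (0.18) and Pcx (0.14). With it in Alexa Fluor 647 the median was 0.137 and the sign changed in Pfkl (-0.07), Ldha (-0.18), Ldhb (-0.53), Pdk3 (0.21), Idh2 (-0.067), Suclg1 (-0.48) and Fh1 (-0.069). In the 3 swapped pairs alone it changed in Hk1 (0.046), Ldhb (-0.05), Pdk3 (0.16), Idh2 (-0.12), Suclg1 (-0.062) and Fh1 (-0.035), and with equal weights or random mouse effects in Hk1 (0.003 in each). Without the array pairing restricted mouse 2 with control mouse 2, Ldhb (-0.016), Pdk3 (0.26), Idh2 (-0.054) and Fh1 (-0.051) changed sign, 29 genes were positive (median 0.24), and 8 had an unadjusted p under 0.05 (6% of all genes). Leaving out 1 mouse changed the sign of 12 genes, with ranges of -0.113 to 0.085 in Hk1, -0.063 to 0.17 in Pfkl, -0.073 to 0.20 in Pgam1, -0.033 to 0.54 in Pkm, -0.12 to 0.23 in Ldha, -0.074 to 0.20 in Ldhb, -0.87 to 0.27 in Pdk3, -0.25 to 0.038 in Idh1, -0.06 to 0.23 in Idh2, -0.017 to 0.22 in Suclg1, -0.017 to 0.135 in Fh1 and -0.38 to 0.175 in Pcx.

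The count past the threshold, 0, was 12 with arrays as replicates, a fit that ignores that arrays share mice (6.9% of all genes passed), and 2, Idh3a and Pfkfb3, with random mouse effects (1.65%). The 9 genes at an unadjusted limma p under 0.05 were 21 and 18 in these fits, where 20.7% and 12.4% of all genes reached it. They were 4 with the restricted mouse in Alexa Fluor 647 (8% of all genes) and 2 with the signs not turned (5.35%). Without 1 mouse they were 1 to 7 (2.15% to 4.48% of all genes), with 1 lacking restricted mouse 3, 2 lacking control mouse 2 and 4 lacking restricted mouse 1. Fits without a mouse have fewer arrays. The 2 dye effects were 4 with arrays scaled to 1 spread.

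With the mouse number as a replicate block 0 genes passed and 7 had an unadjusted p under 0.05 (3.83% of all genes). Deviations of same-numbered mice correlated at -0.015, -0.54 and -0.11. Such mice also meet on an array, so these values do not tell whether the numbers pair them, and the labels give them only as numbers.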

Other observations

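Genes of the side branches of glucose metabolism lay on both sides. Of 15 measured genes of the pentose phosphate path and glycogen turnover 9 were positive, with a median of 0.081. On the positive side were Ugp2, which forms UDP-glucose, at 0.51 (SE 0.19), and Pgm1, a phosphoglucomutase, at 0.44 (SE 0.17). On the negative side was Pygb, a glycogen phosphorylase, at -0.39 (SE 0.16). Each had an unadjusted limma p under 0.05 (0.0256, 0.0337 and 0.0431) and groups that did not overlap, and none of the 3 passed over all genes. Taldo1 had 0.34, Rpe 0.28, the glycogen branching enzyme Gbe1 0.28, Phkb 0.28, the liver-type phosphorylase Pygl -0.25, Gyg -0.16 and H6pd 0.091. Pygl was negative on 11 of 12 arrays, as was Pygb.

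Of the 4 genes of succinate dehydrogenase, the step of the citric acid cycle that sits in the respiratory chain, Sdha, Sdhb and Sdhc were positive at 0.18, 0.13 and 0.19 and Sdhd was at -0.030. None of these 4 genes passed over all genes by limma or had an unadjusted p under 0.05, and in Sdha the groups did not overlap.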
